A study of Mus musculus with 6 samples.

Results

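The AP-1 family was taken here as the 10 genes Fos, Fosb, Fosl1, Fosl2, Jun, Junb, Jund, Atf3, Batf and Batf3, chosen by gene symbol from a table of 40879 genes. All 10 had counts in every library and were among the 13360 genes tested. The libraries came from CD8 T cells sorted by flow cytometry from MC38-hPD-L1 tumours on day 12 in C57BL/6N mice. MC38 is a mouse colon carcinoma line, and by its name the line used carries human PD-L1. Photocatalytic proximity labelling had attached biotin to cells near the tumour cells, and the comparison asks how the cells that carried biotin (Biotin+, tumour-neighbouring, 3 libraries) differ from those that did not (Biotin-, tumour-distal, 3 libraries). Both groups went through the same labelling, tumour model and sort, and the labels do not say whether a replicate is an animal or a pool of animals.

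AP-1 is a dimer of basic leucine zipper proteins that binds DNA and switches on genes after stimulation. JUN proteins pair with each other or with FOS proteins, ATF3 pairs with JUN proteins, and BATF and BATF3 pair with JUN proteins and can bind composite sites together with IRF4 or IRF8. In T cells, antigen receptor and costimulatory signals raise FOS and JUN through MAP kinases, FOS-JUN dimers join NFAT at cytokine genes, and BATF is known for its part in effector and exhausted CD8 T cells. Many AP-1 genes are also switched on quickly by tissue dissociation and are well expressed in fibroblasts and myeloid cells.

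Members of the family differed in what they showed. Fosl1, Atf3, Jun and Fosb were lower in Biotin+ libraries, by 3.78-fold, 2.36-fold, 2.19-fold and 1.83-fold, and 6 members did not pass the test, none of which was called higher. The most abundant members, Junb and Jund, were not called, and Batf, whose protein partners JUN in effector T cells, had a positive log2 fold change of 0.47 ± 0.31 (SE) that did not pass (edgeR adjusted p = 0.411) and became -0.32 when libraries were scaled to CD8 T identity genes. The 4 lower members among 10 stand beside 6.72% of all genes tested that were lower by the same rule, and the 0 higher members beside 1.53% that were higher. At an unadjusted p below 0.05 edgeR gave 0 higher and 5 lower members, against 8.62% and 13.9% of all genes. The DESeq2 Wald test and limma-voom each called 0 higher and 4 lower members, where DESeq2 called 3.53% of all genes higher and 10.4% lower, and limma-voom 1.68% and 7.07%. With the replicate number as a block, which pairs the libraries, edgeR called 0 higher and 5 lower members, Fos being the one added. The same fit called 5.6% of all genes higher and 12% lower. The main test was edgeR's quasi-likelihood test with the group alone and a threshold of 0.05 on the p adjusted over all genes, and log2 fold changes are Biotin+ minus Biotin-.

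The libraries held 16440614 to 19640693 counts in Biotin+ and 16423106 to 19035864 in Biotin-, and between 15780 and 16213 genes had a count in a Biotin+ library, against 18142 to 18477 in a Biotin- library. Biotin+ replicate 2 had the lowest scaling factor (0.815, against 0.980 to 1.13 in the other 5). The sorted cell type was checked against its markers: the 15 CD8 T identity genes summed to 0.818% to 0.916% of Biotin+ counts, against 0.499% to 0.641% of Biotin- counts, and all 15 had positive log2 fold changes. Of these 5 passed (all genes 1.53% higher), against 13 with the replicate block (all genes 5.6% higher). Leaving out Biotin+ replicate 1 or 2 left 3 or 1, and leaving out Biotin- replicate 1 or 3 left 0. The 19 fibroblast and endothelial markers summed to 0.0282% to 0.0585% of Biotin+ counts, against 0.184% to 0.335% of Biotin- counts. CD4 T cell markers summed to 0.000225 ± 0.000140% in Biotin+, against 0.000528 ± 0.000356% in Biotin- (SD, n = 3 each). None of the tested epithelial and tumour, dendritic, neutrophil, B, CD4 T or NK cell markers passed in edgeR with the group alone (1 higher and 1 lower at an unadjusted p below 0.05, and Cd4 lower in DESeq2). Of these lists, 2 of 8 epithelial and tumour, 6 of 7 dendritic and 3 of 5 neutrophil markers were tested. For B, CD4 T and NK cells it was 1 of 4, 2 of 2 and 2 of 4. With the replicate block edgeR called Cdh1 (adjusted p = 0.0361) and Klrb1c (adjusted p = 0.000758) higher and Cd4 lower (adjusted p = 0.0353). Of the 16 fibroblast and endothelial markers tested, 11 were lower (all genes 6.72%) and 0 had a positive log2 fold change, and Acta2, Tagln, Fap, Cdh5 and Kdr had no count in at least 1 library. The 11 were fibroblast and matrix genes. Of the endothelial markers, Pecam1 and Kdr did not pass and Cdh5 was not tested. With the replicate block 14 of the list were lower, Pecam1 among them (all genes 12%). The 11 macrophage and monocyte markers took 0.0371% to 0.0999% in Biotin+ and 0.0838% to 0.311% in Biotin-, ranges that overlap, with none at 0 in any library. Log2 fold changes of all 11 were negative, with a median of -1.0. In this list 0 passed in edgeR, and 2 were lower at an unadjusted p below 0.05 (all genes 13.9%). With the replicate block 4 (Lyz2, Itgam, Adgre1 and Mrc1) were lower (all genes 12%), and under the identity scaling 8 (all genes 29.3%). The part of fibroblast, endothelial and macrophage RNA in the AP-1 values was not tested, and in bulk RNA fewer cells of a type and less RNA per cell cannot be told apart. When libraries were scaled to the 15 identity genes, the log2 fold changes of all genes shifted by a median of -0.776 (to -0.715). Under this identity scaling 6 members were lower and 0 higher, beside 29.3% of all genes lower and 0.157% higher.

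Promoter windows of 5 members are shown because they put 3 of the 4 lower members (Jun, Atf3, Fosb) side by side with Fos and Batf. Each is the 250 bases before the gene's start in RefSeq on build GRCm38.p6, read 5′ to 3′ on the gene's own strand, and a window was found for 9 of the 10 members, all but Fosl1. Capitals mark matches, on either strand, to the AP-1 site TGACTCA, the cAMP response element TGACGTCA, its shortened form TGACGT, the AP-1-like site TGACATCA, the TATA box TATAAA and the serum response element.
Jun, chr4:95052223-95052472, minus strand: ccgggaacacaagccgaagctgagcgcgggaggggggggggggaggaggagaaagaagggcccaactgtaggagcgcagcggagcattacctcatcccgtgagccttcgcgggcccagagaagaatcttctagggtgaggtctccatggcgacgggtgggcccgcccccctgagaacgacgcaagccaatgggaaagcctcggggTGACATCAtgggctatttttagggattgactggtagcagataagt
Atf3, chr1:191183334-191183583, minus strand: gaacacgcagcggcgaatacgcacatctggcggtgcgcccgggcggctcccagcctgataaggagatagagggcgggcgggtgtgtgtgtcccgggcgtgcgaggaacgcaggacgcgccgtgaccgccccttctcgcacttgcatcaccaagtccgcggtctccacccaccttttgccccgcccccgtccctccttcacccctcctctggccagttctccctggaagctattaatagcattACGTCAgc
Fosb, chr7:19310046-19310295, minus strand: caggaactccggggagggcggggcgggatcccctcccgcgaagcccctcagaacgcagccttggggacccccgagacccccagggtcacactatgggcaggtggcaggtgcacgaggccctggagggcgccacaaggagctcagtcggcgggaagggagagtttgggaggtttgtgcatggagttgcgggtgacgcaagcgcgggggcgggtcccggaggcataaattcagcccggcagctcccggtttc
Fos, chr12:85473640-85473889, plus strand: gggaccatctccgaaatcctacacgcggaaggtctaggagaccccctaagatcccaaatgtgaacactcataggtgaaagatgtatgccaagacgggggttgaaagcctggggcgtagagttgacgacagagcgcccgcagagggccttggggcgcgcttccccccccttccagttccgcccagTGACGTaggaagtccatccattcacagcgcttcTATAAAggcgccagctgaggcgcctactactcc
Batf, chr12:85686470-85686719, plus strand: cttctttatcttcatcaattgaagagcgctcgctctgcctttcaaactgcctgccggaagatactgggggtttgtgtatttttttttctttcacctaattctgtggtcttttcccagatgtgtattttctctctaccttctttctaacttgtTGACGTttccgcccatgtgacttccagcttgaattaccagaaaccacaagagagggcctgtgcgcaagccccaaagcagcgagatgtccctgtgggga

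The Jun window holds TGACATCA 45 to 38 bases before the start, a sequence found in 2.93% of 32851 such windows of all genes. TGACGT lies 66 to 61 bases before the start of Fos, 98 to 93 before that of Batf and, on the opposite strand, 8 to 3 before that of Atf3, and 6.47% of all windows hold it. These shortened elements are parts of the full TGACGTCA, which was in 1.55% of all windows and in no window of a member. Fos alone among the 9 members with a window had TATAAA (33 to 28 bases before the start, 12.4% of all windows). None of the 9 windows held TGACTCA (4.46% of all windows) or a serum response element (1.47%), which says only that these letters are not in these 250 bases. TGACGT was thus shared by the windows of Atf3, which was lower, and of Batf, which was not called.

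Among the FOS proteins, which bind DNA as partners of JUN proteins, Fosb was one of the members whose groups did not overlap. It had 232, 212 and 157 CPM in Biotin+ replicates 1, 2 and 3, against 374, 374 and 349 CPM in Biotin- replicates 1, 2 and 3 (CPM are counts scaled to library depth with TMM factors). All 3 Biotin+ libraries lay below all 3 Biotin- libraries, with means of 200.3 ± 39.0 and 366 ± 14.9 CPM (SD, n = 3 each). The fitted log2 fold change of Fosb, -0.87 ± 0.21 (SE), passed (edgeR adjusted p = 0.0293). The call was lost without Biotin+ replicate 2 or 3 or any 1 of the Biotin- libraries (edgeR adjusted p up to 0.110), and the log2 fold change stayed between -0.98 and -0.72. CPM ranges that do not overlap, with Biotin+ lower, occurred for 4 members (Fosb, Fosl1, Jun and Atf3) and for 15.9% of all genes tested; with Biotin+ higher they occurred for 0 members and 13.4% of all genes.

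Fosl1, which encodes FRA-1, a FOS protein without the strong activation domain of FOS, was scarce. Its counts were 121, 59 and 144 in Biotin+ replicates 1, 2 and 3 and 468, 290 and 610 in Biotin- replicates 1, 2 and 3, or 3.69 to 8.72 CPM against 15.9 to 33.0 CPM. The groups did not overlap, replicate 2 was the lowest in both groups and replicate 3 the highest. Fosl1 passed (edgeR adjusted p = 0.0144), and its log2 fold change of -1.92 ± 0.38 (SE) was the most negative of the 10 members. Fosl1 was no longer called when Biotin+ replicate 2 or Biotin- replicate 3 was left out (edgeR adjusted p up to 0.0763). In the GENCODE M21 annotation 57.2% of its exon bases lie opposite exons of Ccdc85b, whose log2 fold change was -0.88 ± 0.33 (SE, edgeR adjusted p = 0.142; 0.0385 with the replicate block), and without a stated strand setting reads of these genes cannot be told apart.

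Fos, the founding member and a classical early response gene, had 181, 183 and 69.3 CPM in Biotin+ replicates 1, 2 and 3, against 291, 305 and 175 CPM in Biotin- replicates 1, 2 and 3. The groups overlapped, because Biotin- replicate 3 lay below Biotin+ replicates 1 and 2. Within each same-numbered pair the Biotin+ library was lower, by log2 ratios of -0.68, -0.74 and -1.34. Fos did not pass, at a log2 fold change of -0.83 ± 0.36 (SE) with an edgeR adjusted p of 0.194. With the replicate number as a block it was -0.92 ± 0.19 (SE) and passed (edgeR adjusted p = 0.00262), which made 5 lower members beside 12% of all genes lower, and 0 higher members beside 5.6% higher.

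Fosl2, which encodes FRA-2 and was the most abundant FOS transcript per length in Biotin+, did not separate the groups. It had 776, 482 and 512 CPM in Biotin+ replicates 1, 2 and 3 and 597, 618 and 423 CPM in Biotin- replicates 1, 2 and 3. The ranges overlapped and the pairs went both ways, Biotin+ being higher in 2 of 3. The log2 fold change was 0.11 ± 0.25 (SE, edgeR adjusted p = 0.840), and it turned negative with library size alone (-0.07) and under the identity scaling (-0.63). Fosb and Fosl1 thus fell in Biotin+ libraries while no change of Fosl2 was called, and whether the members differ from each other was not tested.

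Among the JUN proteins, which can bind DNA on their own as dimers, Jun was the 1 member called. Jun had 238, 264 and 307 CPM in Biotin+ replicates 1, 2 and 3, against 495, 582 and 693 CPM in Biotin- replicates 1, 2 and 3. Every Biotin+ library lay below every Biotin- library, and in both groups replicate 1 was lowest and replicate 3 highest. The log2 ratios within pairs were -1.06, -1.14 and -1.18. Jun had a fitted log2 fold change, Biotin+ minus Biotin-, that passed at -1.13 ± 0.21 (SE; edgeR adjusted p = 0.0128). The call was lost without Biotin- replicate 3 (edgeR adjusted p = 0.0615) and kept without each of the other 5 libraries. Junos, annotated on the opposite strand across 7.28% of the exon bases of Jun, was also lower, at 1.29 to 4.36 CPM in Biotin+, against 8.12 to 20.4 CPM in Biotin- (log2 fold change -2.27 ± 0.53 SE, edgeR adjusted p = 0.0262), and its call was lost without Biotin+ replicate 1 or 2 or Biotin- replicate 3. Without a stated strand setting, reads of Jun and Junos in the overlap cannot be told apart.

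Junb, a JUN protein that activates more weakly than JUN and also acts with BATF, had the highest mean CPM of the family over the 6 libraries. It had 2358, 2396 and 1393 CPM in Biotin+ replicates 1, 2 and 3 and 2279, 2109.8 and 1578 CPM in Biotin- replicates 1, 2 and 3. Replicate 3 was the lowest of both groups, and the ranges overlapped. Its log2 fold change was 0.04 ± 0.27 (SE, edgeR adjusted p = 0.945), which turned negative under upper quartile scaling (-0.04), library size alone (-0.18) and the identity scaling, where it passed as lower (-0.75 ± 0.23 SE, edgeR adjusted p = 0.0360, within the range of 0.00190 to 0.997 over its alternatives). That value lay close to the median of all genes under the identity scaling (-0.715). Exons of Prdx2, whose log2 fold change was -0.19 ± 0.24 (SE, edgeR adjusted p = 0.693), overlap 7.52% of the exon bases of Junb.

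Jund, a JUN protein with steady expression in resting cells, had 1418, 2469 and 2011 CPM in Biotin+ replicates 1, 2 and 3 and 1321, 1441 and 1323 CPM in Biotin- replicates 1, 2 and 3. Biotin+ was higher in 3 of 3 pairs, by log2 ratios of 0.10, 0.78 and 0.60, but Biotin+ replicate 1 lay below Biotin- replicate 2. The log2 fold change of 0.53 ± 0.25 (SE) did not pass (edgeR adjusted p = 0.237; 0.0727 with the replicate block), and under the identity scaling it was -0.28 ± 0.18 (SE). In the annotation 52.6% of the exon bases of Jund lie opposite exons of Gm11175, a symbol absent from the deposited counts.

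Atf3, which encodes a stress-induced factor that pairs with JUN proteins and often represses, was the 1 member whose call survived the loss of each single library. It had 89.4, 130.1 and 110.5 CPM in Biotin+ replicates 1, 2 and 3, against 254, 250.4 and 274 CPM in Biotin- replicates 1, 2 and 3. The highest Biotin+ library lay well below the lowest Biotin- library. Atf3 passed at a log2 fold change of -1.24 ± 0.20 (SE) with an edgeR adjusted p of 0.00792, and had edgeR adjusted p of 0.0129 to 0.0398 with single libraries left out, and 0.0575 without the pair of replicate 1. Under the identity scaling it was -2.05 ± 0.22 (SE, edgeR adjusted p = 0.00571). Fibroblast and endothelial markers, whose summed share of the counts was 0.0461 ± 0.0159% for Biotin+, against 0.256 ± 0.0757% for Biotin- (SD, n = 3 each), moved the same way as Atf3, Jun, Fosb and Fosl1, and their part in these differences was not tested.

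Batf, a small zipper protein without an activation domain, had 36.5, 75.6 and 52.3 CPM in Biotin+ replicates 1, 2 and 3 and 27.0, 53.6 and 37.9 CPM in Biotin- replicates 1, 2 and 3. Within pairs Biotin+ was higher in 3 of 3, with log2 ratios of 0.43, 0.50 and 0.46 that were close to each other, while the replicates of a group differed by more than the group means did and the ranges overlapped. Replicate 2 was the highest in both groups. The blocked fit gave 0.46 ± 0.20 (SE) and did not call it either (edgeR adjusted p = 0.123). Under the identity scaling the sign turned, to -0.32 ± 0.27 (SE), while the median of all genes was -0.715.

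Batf3, known for its need in cross-presenting dendritic cells and present in activated T cells, was scarce. Its counts were 43, 50 and 47 in Biotin+ replicates 1, 2 and 3 and 63, 22 and 50 in Biotin- replicates 1, 2 and 3. No difference was called (log2 fold change 0.25 ± 0.50 SE, edgeR adjusted p = 0.819, negative without Biotin- replicate 2 and under the identity scaling). Dendritic cell markers summed to 0.0742 ± 0.0309% of Biotin+ counts, against 0.0904 ± 0.0424% of Biotin- counts (SD, n = 3 each), with Clec9a at 0 in at least 1 library.

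**Figure D1:**
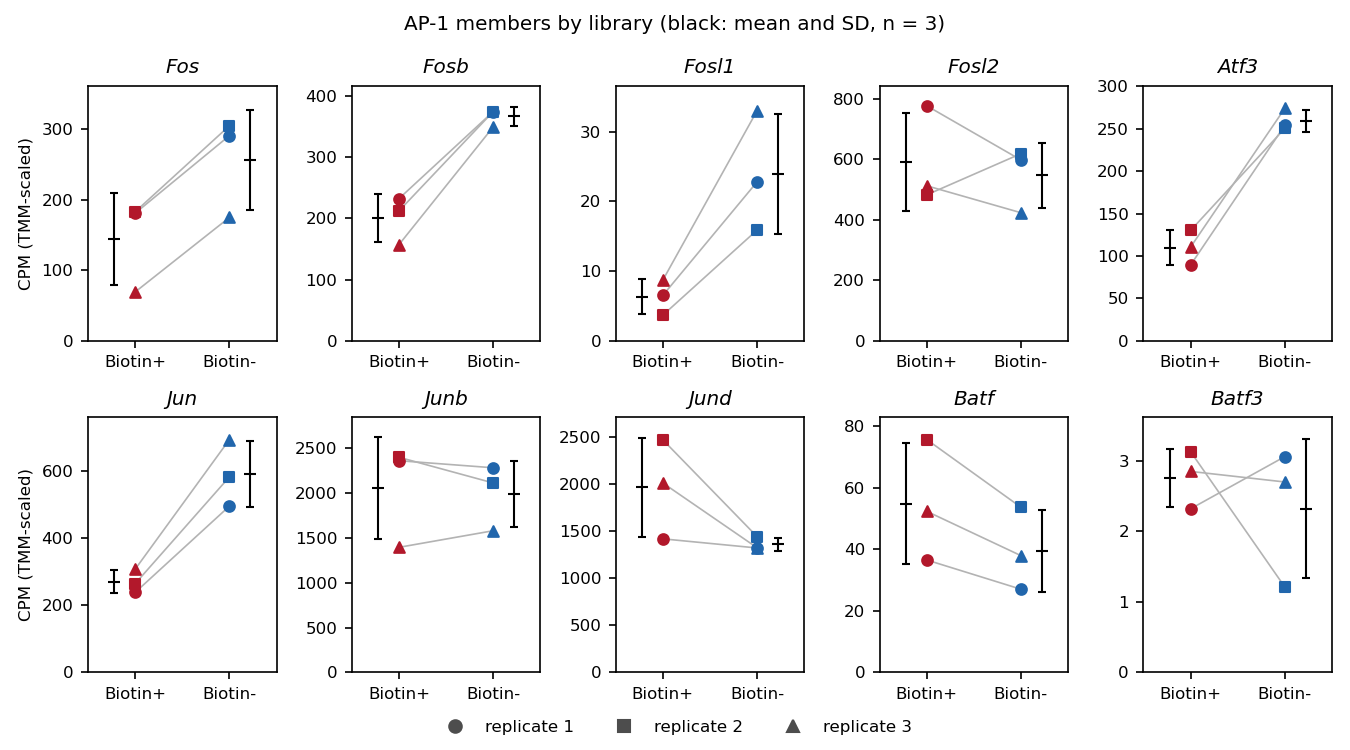
CPM of the 10 AP-1 members in the 3 Biotin+ (red, left) and 3 Biotin- (blue, right) libraries, 1 panel a gene with its own linear axis from 0; grey lines join libraries with the same replicate number and black bars show mean and SD (n = 3). For Fosb, Fosl1, Jun and Atf3 every Biotin+ point lies below every Biotin- point, and for Batf and Jund each of the 3 lines runs down to Biotin- while the groups overlap. Under the identity scaling the log2 fold changes of Batf and Jund are -0.32 and -0.28, beside a median of -0.715 for all genes.

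The log2 fold changes side by side show where the members parted. Under TMM scaling the family's median log2 fold change was -0.39, against 0.06 for all genes tested. Fos, Fosb, Fosl1, Jun and Atf3 had negative values, from -1.92 to -0.83, and Fosl2, Junb, Jund, Batf and Batf3 positive ones, from 0.04 to 0.53. Summed over the family, AP-1 reads were 0.464% to 0.523% of the Biotin+ library totals, against 0.551% to 0.612% of the Biotin- totals, ranges that did not overlap. On the TMM scale per kilobase the sum over the 10 members went the other way and the groups overlapped, with 2583, 3254 and 2342 CPM per kilobase in Biotin+ replicates 1, 2 and 3, against 2707, 2743 and 2320.4 in Biotin- replicates 1, 2 and 3. No direction is therefore given for the family total. The identity scaling moved all 10 to negative values, with a family median of -1.19, while the median of all genes was -0.715. Relative to that median the same 5 members and Junb lay below, and Jund, Batf, Batf3 and Fosl2 lay above it.

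**Figure D2:**
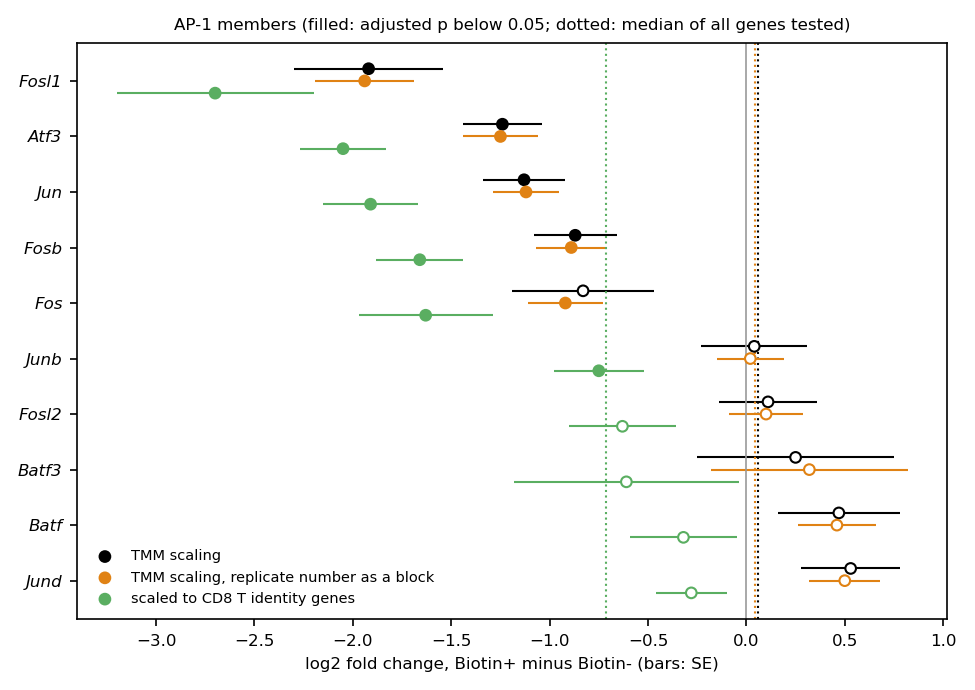
Log2 fold change (Biotin+ minus Biotin-, horizontal axis, bars are SE) of the 10 members under TMM scaling (black), TMM scaling with the replicate number as a block (orange) and scaling to the CD8 T identity genes (green); filled points have an adjusted p below 0.05 and dotted lines mark the median of all genes tested. The identity scaling shifts the members to the left along with the median of all genes, from 0.06 to -0.715.

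The make-up of the AP-1 transcript pool does not depend on how libraries are scaled to each other. The pool was taken as the summed count per kilobase of the longest GENCODE M21 transcript of each member. Junb and Jund were the 2 largest parts in every library: Junb took 50.5%, 40.7% and 32.9% in Biotin+ replicates 1, 2 and 3 and 46.5%, 42.5% and 37.6% in Biotin-, and Jund took 32.9%, 45.5% and 51.5% in Biotin+ and 29.3%, 31.5% and 34.2% in Biotin-. In both groups the share of Junb was highest in replicate 1 and lowest in replicate 3, and the share of Jund ran the other way.

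Jun took 2.89%, 2.55% and 4.11% of the pool in Biotin+ replicates 1, 2 and 3, against 5.74%, 6.65% and 9.37% in Biotin-. The share of Atf3 was 2.05 ± 0.317% in Biotin+, against 5.09 ± 0.741% in Biotin- (SD, n = 3 each), that of Fos 2.46 ± 0.975% and 4.65 ± 0.927%, that of Fosb 1.96 ± 0.362% and 3.75 ± 0.197%, and that of Fosl1 0.132 ± 0.0695% and 0.508 ± 0.231%. For these 5 members every Biotin+ library had a smaller share than every Biotin- library. Each gave p = 0.1 in a two-sided exact permutation test, the smallest that 3 against 3 allows. The adjusted p of each was 0.2 over the 10 members. No share could reach the threshold in this test, so it does not decide whether the shares differ. The share of Batf was 2.08 ± 0.525% in Biotin+, against 1.60 ± 0.509% in Biotin- (SD, n = 3 each), with overlapping ranges (exact p = 0.3). Since shares add up to the whole, they are not independent of each other.

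The levels per length set the order of the members. In Biotin+ the means ran from Jund (1179 ± 316 CPM per kilobase) and Junb (1133 ± 314), which did not differ beyond their spread, to Fosl2 (90.3 ± 24.7), Jun (84.6 ± 10.9), Fos (68.5 ± 30.8), Batf (57.4 ± 20.6), Atf3 (55.4 ± 10.2) and Fosb (53.0 ± 10.3), whose neighbours were within their SDs, and then to Fosl1 (3.39 ± 1.35) and Batf3 (2.49 ± 0.369). In Biotin- the order was Junb (1099 ± 202 CPM per kilobase), Jund (816 ± 41.1), Jun (185 ± 31.1), Atf3 (131 ± 6.30), Fos (122 ± 33.7), Fosb (96.7 ± 3.93), Fosl2 (83.5 ± 16.4), Batf (41.4 ± 14.0), Fosl1 (12.8 ± 4.61) and Batf3 (2.09 ± 0.888), all SD with n = 3. Batf stood above Atf3 and Fosb in the Biotin+ means by less than the SDs, and below both in all 3 Biotin- libraries.

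Summed over subfamilies, the FOS transcripts were 215 ± 56.1 CPM per kilobase in Biotin+, against 315 ± 49.6 in Biotin-, the JUN transcripts 2396 ± 433 and 2101 ± 189, and the BATF transcripts 59.9 ± 20.9 and 43.5 ± 13.1 (SD, n = 3 each). The log2 ratio of the BATF sum to the FOS sum was -2.74, -1.42 and -1.46 in Biotin+ replicates 1, 2 and 3, against -3.45, -2.60 and -2.61 in Biotin- replicates 1, 2 and 3. Biotin+ was higher in 3 of 3 same-numbered pairs, by 0.71, 1.18 and 1.16, while Biotin+ replicate 1 lay within the Biotin- range. The mean difference of 1.02 gave p = 0.3 in a two-sided exact permutation test over the 6 libraries. The smallest p possible there is 0.1. Over the 3 pairs the exact permutation test gave p = 0.25, the smallest possible. Neither test could reach the threshold with so few libraries, so they do not decide whether the ratio differs.

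**Figure D3:**
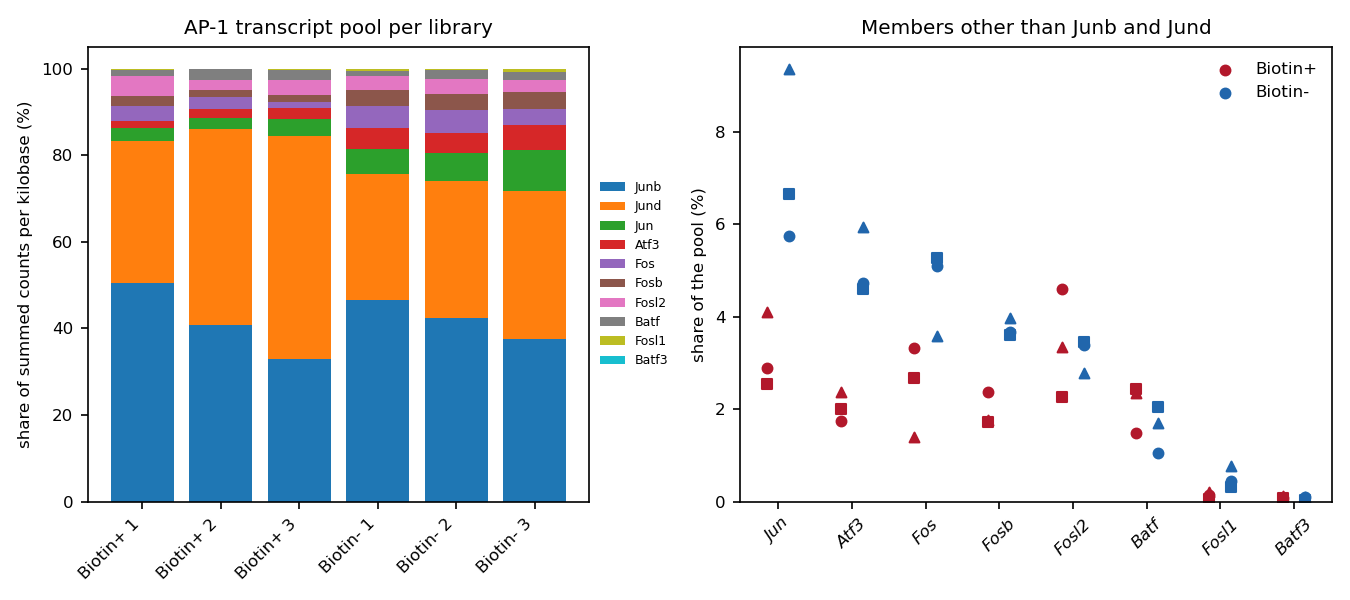
Share of each AP-1 member in the summed counts per kilobase of the 10 members, in percent; left, stacked bars for each library, and right, the members other than Junb and Jund with Biotin+ in red and Biotin- in blue (circle, square and triangle are replicates 1, 2 and 3). Junb and Jund fill most of every bar, and the Biotin+ points of Jun, Atf3, Fos, Fosb and Fosl1 lie below the Biotin- points.

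The genes whose log2 CPM over the 6 libraries was most like that of Jun were Myc (Pearson r = 0.998), Crabp1 (0.996), Pi4k2b (0.993), Anxa1 (0.992) and Sdc2 (0.991), out of 8438 genes with a mean of at least 10 CPM. Predicted gene models (Gm and Rik symbols) and T cell receptor and immunoglobulin segments were left out before this ranking. Within the family the nearest to Jun was Atf3 (r = 0.957), then Fosl1 (0.919) and Fosb (0.810), and Fos was farther off (0.445). For Batf the most alike were Srsf3 (r = 0.996), Stip1 (0.991), Ap1s2 (0.989), Ms4a6b (0.986) and Brcc3 (0.986), and within the family Jund (0.844). These values describe 6 libraries that share 2 groups and 3 replicate numbers.

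Counts for genes that act with or above AP-1 are read against the shares of all genes tested, which were 1.53% higher and 6.72% lower in edgeR, 5.6% and 12% with the replicate block, 3.53% and 10.4% in DESeq2, 1.68% and 7.07% in limma-voom, and 0.157% and 29.3% under the identity scaling. Of 19 tested MAP kinases and kinases above them (Mapk13 was not tested), which carry the signals that raise FOS and JUN, 0 passed in edgeR, DESeq2 and limma-voom, 1 was higher at an unadjusted p below 0.05, and 6 were lower under the identity scaling. These counts are near the shares of all genes, and the median log2 fold change of the list was 0.06. Of 6 genes for SRF and its partners, which act on the serum response elements of early genes, 0 passed in edgeR and limma-voom and 1 was higher in DESeq2; the log2 fold change of Elk3, 0.70 ± 0.20 (SE), did not pass (edgeR adjusted p = 0.0625; 0.0143 with the replicate block) and became -0.07 under the identity scaling.

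Of 7 IRF and NFAT genes, whose proteins bind with AP-1 at composite sites, 1 was higher and 1 lower. Irf8, a partner of BATF-JUN dimers, had 951, 1481 and 1522 CPM in Biotin+ replicates 1, 2 and 3, against 389, 545 and 304 CPM in Biotin- replicates 1, 2 and 3. Irf8 was higher by a log2 fold change of 1.67 ± 0.28 (SE) with an edgeR adjusted p of 0.00837, passed without each single library and stayed positive under the identity scaling (0.92, edgeR adjusted p = 0.0178). Irf4, the other partner, had 74.9 ± 23.5 CPM in Biotin+, against 62.0 ± 22.3 CPM in Biotin- (SD, n = 3 each) and did not pass (edgeR adjusted p = 0.651). The lower gene was Nfatc4, a calcium-regulated NFAT protein, at 0 to 0.727 CPM in Biotin+, against 3.18 to 7.35 CPM in Biotin- (edgeR adjusted p = 0.0292), and it was not called without any 1 of 4 libraries (Biotin+ replicate 1 and the 3 Biotin- libraries).

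Of 21 other basic leucine zipper genes outside the 10, 0 were higher and 1 lower in edgeR (2 higher and 2 lower with the replicate block, 1 and 2 in DESeq2, 1 and 1 in limma-voom, and 0 and 9 under the identity scaling), with a median log2 fold change of -0.15. The 1 lower gene among 21 is near the 6.72% of all genes that were lower and is no result about these genes as a group. That gene was Atf5, a stress-response factor, at 59.2 ± 19.6 CPM in Biotin+, against 161 ± 67.5 CPM in Biotin- (SD, n = 3 each, log2 fold change -1.44 ± 0.33 SE, edgeR adjusted p = 0.0255), and the call was lost without Biotin+ replicate 1 or 2 or Biotin- replicate 1 or 3. Crem, whose short forms repress cAMP response elements, had 287 ± 40.5 CPM in Biotin+, against 177 ± 15.0 CPM in Biotin- (SD, n = 3 each). It passed with the replicate block (edgeR adjusted p = 0.0538 without and 0.0110 with it), in DESeq2 (adjusted p = 0.00944) and in limma-voom (adjusted p = 0.0475). Its log2 fold change of 0.70 became -0.08 under the identity scaling, where the median of all genes was -0.715. Batf2, the remaining BATF gene, had 1.25 to 3.27 CPM in Biotin+, against 3.02 to 15.5 CPM in Biotin-. It was lower with the block (edgeR adjusted p = 0.0995 without and 0.00490 with it) and in DESeq2 (adjusted p = 0.0213), and did not pass in limma-voom (adjusted p = 0.189).

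T cell genes with known AP-1 sites gave 1 call. Of 8 tested (Il3 and Il4 were not tested), 1 was higher and 0 lower, and 3 were higher with the replicate block. Il2ra, the interleukin 2 receptor alpha chain, had 181, 131 and 244 CPM in Biotin+ replicates 1, 2 and 3, against 93.1, 97.6 and 59.3 CPM in Biotin- replicates 1, 2 and 3 (log2 fold change 1.15 ± 0.27 SE, edgeR adjusted p = 0.0290). The call was lost without Biotin+ replicate 3 or any 1 of the Biotin- libraries, and under the identity scaling (0.43, edgeR adjusted p = 0.282). Ifng, which encodes interferon gamma, and Fasl, the death ligand, had edgeR adjusted p of 0.203 and 0.125, and 0.000983 and 0.0470 with the block. With the identity scaling the calls of this list were 0 higher and 2 lower (Tnf and Cd69), and with library size alone 0 of either kind.

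Of 26 dissociation and early response genes outside the family, 6 (Egr1, Egr2, Ier3, Klf4, Rhob and Ccn1) were lower and 0 higher in edgeR (all genes 6.72% and 1.53%). The median log2 fold change of the list was -0.30, and 8 of the 26 genes had a positive one. At an unadjusted p below 0.05, 9 were lower and 0 higher (all genes 13.9% and 8.62%). DESeq2 gave 8 lower (all genes 10.4%) and limma-voom 7 (all genes 7.07%). With the replicate block 10 were lower and 2, the heat shock genes Hspa1a and Dnaja1, were higher (all genes 12% and 5.6%), and under the identity scaling 19 were lower (all genes 29.3%). Ccn1, a matricellular protein of stroma, was 112 ± 59.2 CPM in Biotin+, against 531 ± 226 CPM in Biotin- (SD, n = 3 each). Klf4, a zinc finger factor, was 71.2 ± 28.9 CPM in Biotin+, against 259 ± 64.6 CPM in Biotin- (SD, n = 3 each). Ier3, an early response gene that limits cell death, was 74.2 ± 4.29 CPM in Biotin+, against 199 ± 48.9 CPM in Biotin- (SD, n = 3 each), and Rhob, a small GTPase, 138 ± 23.0 CPM in Biotin+, against 371 ± 131 CPM in Biotin-. Ier3 and Klf4 passed without each single library, whereas Ccn1 was not called without Biotin+ replicate 2, and Rhob without that library or Biotin- replicate 3. The summed fibroblast and endothelial markers were lower in the same libraries, those called being fibroblast and matrix genes. The part of such RNA in these values was not tested.

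**Figure D4:**
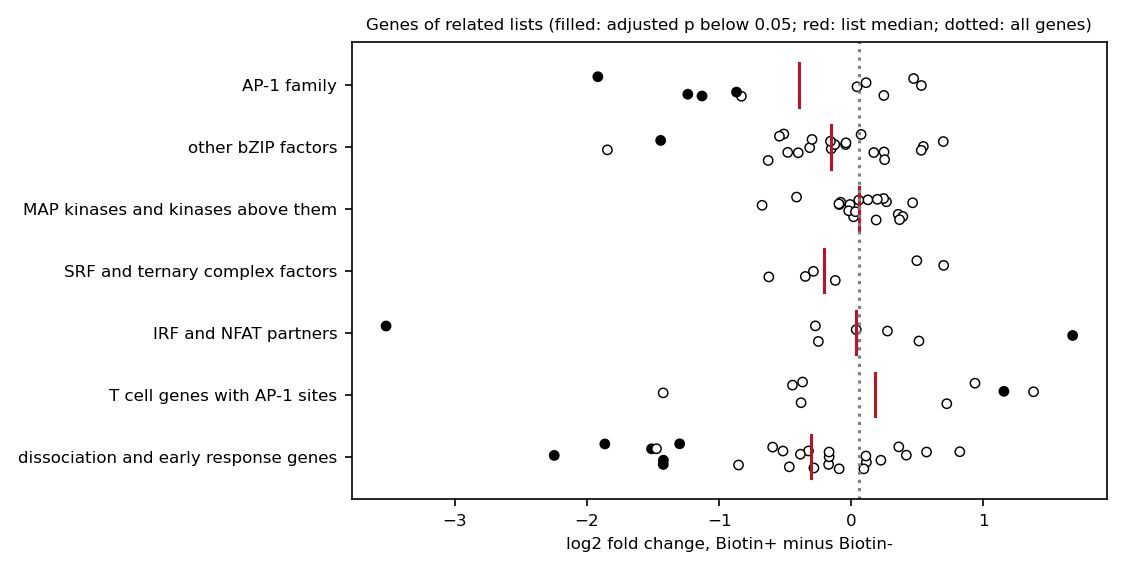
Log2 fold change (Biotin+ minus Biotin-) of the tested genes in the AP-1 family and 6 related lists under TMM scaling, 1 point a gene, filled where the adjusted p is below 0.05, with the list median in red and the median of all genes dotted. The AP-1 family and the early response list hold 4 and 6 lower genes, and the MAP kinase list holds no filled point.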

How the data were processed

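The measurement was poly-A RNA sequencing, and the authors deposited raw counts of reads per gene symbol, whole numbers in 1 column per library, per the labels. Per the submitters' processing notes, which give no roles, the genome build was GRCm39 and the tools were STAR 2.7.10a, featureCounts 2.0.1, Trim Galore 0.6.7 and Picard 1.14. The sources used here do not give the annotation, the strandedness or the handling of multimapping reads.

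Groups and replicate numbers came from the sample titles. Separate animals are not stated, so p-values measure the spread between these samples. No libraries of a group agreed within sampling noise (chi-square over degrees of freedom 35.6 to 103).

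Counts were tested with edgeR 4.0.16 in R 4.3.3 (filterByExpr, TMM, robust quasi-likelihood F test, group alone, Benjamini-Hochberg over all 13360 genes tested), checked first on simulated data. The SE was computed as log2 fold change over the square root of F. Pool shares and ratios used exact permutation tests. The identity scaling set each library to the 15 CD8 T identity genes. Alternatives were this and other scalings, filters, DESeq2 1.42.0, limma 3.58.1 (voom), a replicate block and left-out libraries. Deviations from the group means correlated at 0.366, 0.263 and 0.393 for same-numbered samples and at -0.276 to -0.0721 for others, so the replicate numbers pair the libraries; the test with the group alone does not use this, and the replicate block does. Transcript lengths and overlaps came from GENCODE M21 and promoters from RefSeq, both on GRCm38. No molecular identifiers are named, so reads may repeat a molecule and counting error is a lower limit.

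The members and the gene lists were chosen with earlier results of these data known. Genes given with values are the members, up to 4 genes a list, by smallest p, and the 5 genes most like Jun and Batf. Junos, Ccdc85b, Prdx2 and Gm11175 are named because they overlap members. Other list genes are named without values, and not every gene the rule takes is named.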

Additional observations from a re-analysis of the deposited data

How the results depend on the processing

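Over 19 alternatives, no AP-1 member was called higher in any, and the number called lower was 5 without a filter and with the replicate block, 6 under the scaling to CD8 T identity genes, 7 when that scaling was combined with the replicate block (an alternative chosen after seeing the data), 1 to 4 without single libraries and 1 to 2 without same-numbered pairs, 1 being the count without Biotin- replicate 3 and 2 that without Biotin+ replicate 2. It was 4 under each of the other alternatives. Of all genes, 12% were lower with the replicate block, 29.3% under the identity scaling and 8014 of 13360 with both. The 7 lower members in that last fit are therefore no result about the family. Fosb, Fosl1, Jun, Atf3 and Fos kept their negative sign throughout, with log2 fold changes of -1.67 to -0.72, -2.72 to -1.62, -1.91 to -1.0, -2.05 to -1.10 and -1.70 to -0.49. The calls were lost under 8 alternatives for Fosb, 2 for Fosl1, 4 for Jun and 1 for Atf3, and Fos gained one under 4.

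Members without a call, and those related genes that were followed over all alternatives, changed sign as follows. Irf4 was not among the related genes followed. Its log2 fold change was 0.27 under TMM scaling and -0.48 under the identity scaling (edgeR adjusted p = 0.187), and it passed in 1 of 19 alternatives. Under the identity scaling, alone and with the replicate block, the log2 fold changes were -0.63 and -0.69 for Fosl2, -0.75 and -0.77 for Junb, -0.28 and -0.29 for Jund, -0.32 and -0.32 for Batf, -0.61 and -0.46 for Batf3, -0.08 and -0.10 for Crem, -0.07 and -0.07 for Elk3 and -0.02 and -0.12 for Fasl. With library size alone they were -0.07 for Fosl2 and -0.18 for Junb, and with upper quartile scaling -0.04 for Junb. With libraries left out Fosl2 ran from -0.13 to 0.27, Junb from -0.11 to 0.26 and Batf3 from -0.23 to 0.61. The share of Junb in the AP-1 pool differed by -0.868 percentage points per kilobase and 1.21 in raw counts.

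Over all genes, 205 were higher and 898 lower. These counts were 748 and 1599 with the replicate block, 21 and 3919 under the identity scaling, 92 and 8014 with both, 396 and 1495 without a filter, 471 and 1389 by DESeq2, and 84 higher with library size alone; with libraries left out they ran from 23 to 200 and from 239 to 1044, with 58 and 364 without Biotin+ replicate 2, 52 and 445 without Biotin- replicate 1, 111 higher without Biotin- replicate 2, and 23 and 239 without Biotin- replicate 3. Higher genes were 0.533% of the calls under the identity scaling and 18.6% under TMM. The BATF to FOS difference of 1.02 was 0.80 in raw counts and 0.74 to 1.45 without single libraries, and among the genes named with values the replicate block changed no call other than those of Fos, Ccdc85b, Crem, Batf2, Elk3, Ifng, Fasl, Cdh1, Klrb1c and Cd4. The cause of these shifts was not tested. Batf3 had 22 to 63 counts a library, and the part of depth in its SE was not tested.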
